A study of Mus musculus with 18 samples.

Results

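The comparison set 2 arrays of cavity cells taken 14 days after a sterile object was placed in the peritoneal cavity against 2 arrays taken at day 7, which is 4 of the 18 arrays of the study. They were chosen by their titles, as lavage cells of day 7 and of day 14, and every gene tested was compared. The mice were MacGreen animals on C57Bl/6J, aged 10 to 16 weeks per the labels, whose EGFP transgene is under the control of the Csf1r promoter, active in cells of the myeloid lineage. All mice of both groups carried the reporter and an implant, and no other allele or agent is named. Peritoneal exudate cells were collected by lavage, sorted for size, granularity and bright EGFP, and pooled before RNA was taken. Unstimulated lavage cells (day 0, no implant, 2 arrays) and cells digested from the tissue capsule around the object (day 7 and day 14, 2 arrays each) served for comparison. Replicate 1 of each lavage day was on slide 1 and replicate 2 on slide 2. Nothing in the labels states that replicates 1 and 2 were separate animals. The p-values therefore describe array-to-array variation, part or all of which may be technical.

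Resident macrophages of the peritoneal cavity are long-lived cells whose identity depends on the transcription factor GATA6, induced by retinoic acid from the surrounding tissue. When the cavity is disturbed these cells become scarce in lavage fluid, monocytes enter from the blood, and macrophages of either origin can divide locally. Proliferating cells share a programme in which E2F factors and the DREAM and MuvB complexes act on promoters of replication and mitosis genes. A foreign object left in the cavity becomes coated with such cells, and a capsule forms around it.

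Between day 7 and day 14 cavity cells lost the transcripts of cell division almost as a block, lost mast cell proteases and several monocyte and chemokine transcripts, and regained some of the genes that mark resident macrophages. Of 10806 genes tested, 1416 changed (13.1%), 679 higher at day 14 (6.28%) and 737 lower (6.82%). Counts of gene list members below are to be read beside these shares. Both arrays of 1 day lay above both of the other for each of the 1416, and for 54.2% of all genes tested. Without replicate 1 of day 14 the count was 677, without replicate 2 of day 7 775 and without replicate 1 of day 7 818. A change of at least 2-fold was seen in 200 genes that rose and 332 that fell. The 2 arrays of day 7 correlated at 0.992 and those of day 14 at 0.989, while arrays of different days correlated at 0.973 to 0.979 across genes, which are not independent replicates. Mean intensity was 878 and 977 on the day 7 arrays and 585 and 689 on the day 14 arrays, and 17143 and 17346 against 16534 and 16442 probes were detected. With median scaling in place of quantile normalisation the median of all genes moved from 0.02 to -0.35 and only 5.67% of the changed genes were higher, against 47.95% in the analysis reported here. Single genes turned sign under that scaling only where the change was small (at most 0.53, 26 genes, none of them in a gene list). In RNA from sorted pools, fewer cells of a type and less RNA per cell cannot be told apart.

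**Figure D1:**
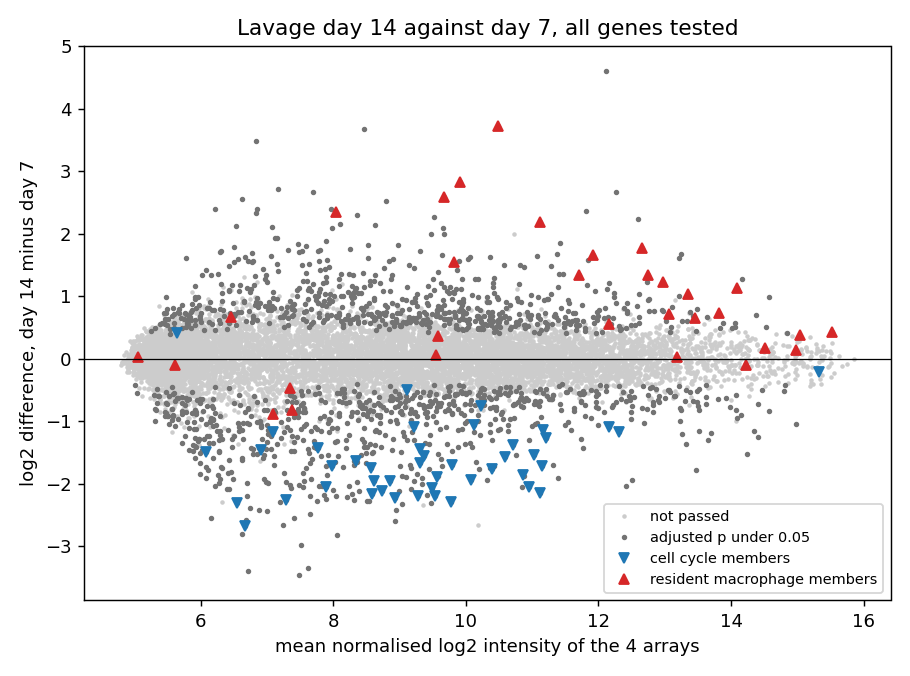
Each point is 1 gene, with its mean normalised log2 intensity over the 4 arrays on the horizontal axis and its log2 difference, day 14 minus day 7, on the vertical axis; dark grey marks an adjusted p under 0.05. Of the cell cycle members (blue), 42 of 44 lay in the lower changed cloud, while 14 of the 31 resident macrophage members (red) were among the genes that rose and 0 among those that fell.

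Cells of both days had been sorted for bright EGFP from the Csf1r promoter, so a myeloid identity was set by the sort. The values below describe genes of that identity. Adgre1, an adhesion-class receptor used as a surface marker of mouse macrophages, was at 14.81 and 14.89 on the day 7 arrays and 15.34 and 15.13 on the day 14 arrays (normalised log2 intensity, here and below). Its arrays did not overlap, yet the difference of 0.38 missed the threshold (SE 0.14, adjusted p 0.0814). Itgam, the CD11b integrin chain of myeloid cells, was at 9.88 and 10.81 and then 10.91 and 10.61, with overlapping arrays. Lyz2, Fcer1g, Laptm5 and Spi1, genes that most myeloid cells transcribe, differed by -0.24 to 0.25 and did not pass. Of these, Lyz2, Fcer1g and Laptm5 lay at 15.07 to 15.66 on the arrays of both days, near the top of the intensity scale, where differences are compressed. Of 20 measured myeloid genes 4 fell and 0 rose, and the median was -0.18. The 4 were Aif1 and Fcgr1, described below, the transcription factor gene Maf (-1.07) and the low-affinity Fc receptor gene Fcgr3 (-0.50). Without either of the day 7 arrays 2 of the 4 passed. Maf did not pass without replicate 1 of day 14 (adjusted p 0.199) or without replicate 1 or 2 of day 7 (adjusted p 0.154 and 0.0525). Fcgr3 did not pass without any 1 of the 4 arrays (adjusted p 0.07 to 0.22) or with the replicate block, a fit of slides 1 and 2 in which the replicate number is a term (adjusted p 0.0869). Csf1r, whose promoter drives the reporter, was not analysed here.

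The genes of DNA replication and mitosis gave the most uniform change. Of 44 measured members of the cell cycle list 42 fell and 0 rose, beside 6.82% of all genes that fell, and the median was -1.71 beside 0.02 for all genes (-1.72 within slide 1 and -1.58 within slide 2). Cdk1, the kinase that drives entry into mitosis, was at 10.99 and 11.12 on the day 7 arrays and at 9.11 and 9.12 on the day 14 arrays. All 4 values were close within a day and far between days, a fall of 1.94 (SE 0.23, adjusted p 0.000137), or 3.84-fold.

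Top2a, the topoisomerase that untangles sister chromosomes, was at 10.23 and 10.79 and then at 8.53 and 8.70. The groups did not overlap, and it fell by 1.90 (SE 0.24, adjusted p 0.000173). A second probe of Top2a fell by 2.42 (adjusted p 0.000176). Birc5, which encodes the mitotic regulator survivin, went from 10.84 and 10.999 to 8.81 and 8.45, a change of -2.29 (SE 0.22, adjusted p 3.27e-05) that its other probes gave as -2.32 and -2.13. Cenpe, a motor protein of the kinetochore, went from 10.26 and 10.02 to 8.64 and 8.55 (-1.55, SE 0.14, adjusted p 2.43e-05). Mcm2, a subunit of the replicative helicase, went from 10.17 and 10.12 to 8.50 and 8.46 (-1.66, SE 0.17, adjusted p 4.42e-05).

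Cdc45, a cofactor of the replicative helicase, was the list member that fell most. It was at 7.74 and 8.26 on day 7 and not detected on either day 14 array, which makes it at least 4.58-fold lower. Such bounds stand for the change from day 7 to day 14 where neither array of a day detected a gene. On each dim array the floor was the weakest signal of any detected probe, or the gene's own value if that was higher, and the mean of the brighter day was set against the mean of these floors. Other genes of replication and division, outside the list, were also among the 12 largest falls of all genes. Pole, the catalytic subunit of a replicative DNA polymerase, went from 8.85 and 8.53 to 6.56 and 5.70 (-2.55, SE 0.32, adjusted p 0.000173). Shcbp1, a protein of the central spindle, went from 8.82 and 9.20 to 5.61 and 6.44 (-2.98, SE 0.29, adjusted p 3.26e-05). Cep55, needed for the last cut between daughter cells, went from 8.73 and 8.40 to 6.35 and 5.47 (-2.66, SE 0.28, adjusted p 6.12e-05). For all of them the lowest day 7 value lay above the highest day 14 value. Second probes gave smaller changes, -0.97 for Shcbp1 (adjusted p 0.000933) and -1.23 for Cep55 (adjusted p 0.000763).

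The 2 list members that did not pass were Bub1 (0.42, adjusted p 0.121), a mitotic checkpoint kinase, and Tuba1b (-0.22, adjusted p 0.373), a tubulin that resting cells also make. The smallest fall that passed was that of Pcna, the sliding clamp of DNA polymerases, at -0.51 (SE 0.16, adjusted p 0.0488), which did not pass without any 1 of the 4 arrays (adjusted p 0.109 to 0.215) or with the replicate block (adjusted p 0.0538). The comparisons with day 0 share arrays with that of day 14 against day 7, so their values are set side by side only. At day 7, 41 of the 44 members were above day 0 (15.1% of all genes were above at day 7), and at day 14, 4 were above and 1 below (10.3% and 9.5% of all genes). The median level of the list was 8.32 and 8.40 on the day 0 arrays, 9.90 and 9.75 at day 4, 10.25 and 10.09 at day 7 and 8.68 and 8.50 at day 14. Cdk1 and Cenpe still exceeded day 0 at day 14, by 0.71 (adjusted p 0.0468) and 0.56 (adjusted p 0.0125), and Mcm2 lay below it (-0.59, adjusted p 0.0223).

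Promoters of cell division genes are known for CCAAT boxes and for cell cycle homology region (CHR) elements near the start site. The sequences that follow are RefSeq windows of build GRCm38.p6, from 250 bases before to 50 after the start. They are of the named cell cycle genes with the smallest p whose only window held CCAAT together with CHR or E2F letters. These matches were therefore a condition of the choice, and the windows are shown as examples of the promoters of genes that fell together. Capitals mark CCAAT, CHR letters (TTTGAA or TTCGAA) and E2F letters (TTTCCCGC, TTTGGCGC, TTTCGCGC or TTTGCCGC), each on either strand, where letters of different motifs may overlap. The Mcm2 window is chr6:88898731-88899030 on the minus strand, that of Cdk1 is chr10:69352863-69353162 on the minus strand and that of Top2a is chr11:99024140-99024439 on the minus strand.
Mcm2: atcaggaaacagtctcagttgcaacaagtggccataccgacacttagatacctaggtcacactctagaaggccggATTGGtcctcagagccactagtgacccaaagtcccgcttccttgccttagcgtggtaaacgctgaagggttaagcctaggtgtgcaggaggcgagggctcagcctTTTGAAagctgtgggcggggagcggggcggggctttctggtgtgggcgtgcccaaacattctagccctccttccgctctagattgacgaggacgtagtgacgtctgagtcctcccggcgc
Cdk1: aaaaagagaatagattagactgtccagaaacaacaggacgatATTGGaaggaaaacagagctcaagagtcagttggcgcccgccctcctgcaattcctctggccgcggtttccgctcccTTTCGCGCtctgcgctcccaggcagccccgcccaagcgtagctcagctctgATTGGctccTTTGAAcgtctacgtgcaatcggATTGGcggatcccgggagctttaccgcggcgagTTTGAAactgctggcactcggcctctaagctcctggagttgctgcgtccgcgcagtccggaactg
Top2a: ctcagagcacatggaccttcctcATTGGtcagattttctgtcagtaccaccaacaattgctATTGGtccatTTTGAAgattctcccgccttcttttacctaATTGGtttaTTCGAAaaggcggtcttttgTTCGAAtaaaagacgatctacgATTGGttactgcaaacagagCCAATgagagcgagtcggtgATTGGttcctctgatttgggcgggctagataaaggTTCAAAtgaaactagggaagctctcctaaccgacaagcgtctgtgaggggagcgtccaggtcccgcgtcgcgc
The Top2a window held 6 CCAAT and 4 CHR matches, that of Cdk1 3 CCAAT, 2 CHR and 1 E2F match, and that of Mcm2 1 of each of the first 2 kinds. The table held 40 windows for 36 of the 42 members that fell. CCAAT was in 62.5% of them and in 37.4% of all 32851 windows of this length, CHR letters in 40.0% and 19.2%, E2F letters in 20.0% and 2.27%, and CCAAT together with CHR letters in 37.5% and 7.53%. These matches describe letters only. CCAAT was in 25 of the 40 windows, CHR letters in 16 and E2F letters in 8, so each kind was missing from many promoters of genes that fell.

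Cyclin-dependent kinase inhibitors, which restrain division, moved in both directions. Of 11 measured members 3 rose and 2 fell, with a median of 0.07. Cdkn2b, the p15 inhibitor, went from 6.79 and 7.23 to 8.99 and 8.15, a rise of 1.56 (SE 0.29, adjusted p 0.00317) that left it at -2.62 against day 0 (adjusted p 2.12e-05). Cdkn2a, which encodes p16 and p19ARF, rose by 1.72 (SE 0.39, adjusted p 0.0111), by 2.41 within slide 1 and 1.03 within slide 2, and did not pass without replicate 1 of day 14 (1.12, adjusted p 0.141) or of day 7 (1.63, adjusted p 0.0702). Gadd45a, a gene induced by DNA damage and growth arrest, went from 9.31 and 9.26 to 10.17 and 10.51 (1.05, SE 0.18, adjusted p 0.00167), with day 0 at 10.40 and 10.31; with median scaling it gave 0.55 (adjusted p 0.0678). Cdkn2d, the p19INK4d inhibitor, fell by 0.83 (adjusted p 0.0133), which did not pass without replicate 2 of day 7 (adjusted p 0.146) or of day 14 (adjusted p 0.069), so that without the former 1 of the 11 members fell. Cdkn2c, the p18 inhibitor, fell by 0.92 on the probe used (adjusted p 0.00157) and by 2.21 on a second (adjusted p 0.000118), but the other gave 0.58 (adjusted p 0.0574), so its direction is uncertain.

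Genes that mark resident peritoneal macrophages rose in 14 of 31 measured members and fell in 0, beside 6.28% of all genes that rose, with a median of 0.66 (0.85 on slide 1, 0.59 on slide 2). The count was 9 without replicate 1 of day 7 and 9 without replicate 1 of day 14. The gene that defines these cells, Gata6, was at 12.04 and 12.11 on the day 7 arrays and 13.48 and 13.35 on the day 14 arrays. Both day 14 arrays were higher, a rise of 1.34 (SE 0.27, adjusted p 0.00512), and a second probe gave 1.502 (adjusted p 0.00111). Its day 0 arrays were at 13.27 and 13.16, and the difference of day 14 from day 0 was 0.20 (adjusted p 0.664).

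Tgfb2, a transforming growth factor made by resident macrophages, was the second largest rise of any gene. It went from 8.14 and 9.10 to 12.73 and 11.96, and the days did not overlap (3.73, SE 0.53, adjusted p 0.000466); its second probe was undetected at day 7. On slide 1 it gained 4.59 and on slide 2 2.86, and day 14 against day 0 gave -1.76 (adjusted p 0.03). Alox15, the lipoxygenase that makes lipid mediators in resident macrophages and eosinophils, went from 7.95 and 9.04 to 11.22 and 11.41 (2.83, SE 0.46, adjusted p 0.00116). Nt5e, the ectoenzyme CD73 that forms adenosine, went from 8.17 and 8.60 to 10.88 and 11.05 (2.58, SE 0.34, adjusted p 0.00027), and its day 0 arrays, at 11.18 and 10.74, enclosed the latter range. Cfb, complement factor B, went from 10.14 and 9.92 to 12.17 and 12.26 (2.18, SE 0.35, adjusted p 0.00115).

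Timd4, a receptor for phosphatidylserine on dying cells and a marker of long-resident macrophages, was at 10.77 and 11.30 and then 12.43 and 12.33. It rose by 1.34 (SE 0.23, adjusted p 0.00191) and stood at -2.14 against day 0 (adjusted p 1.66e-05). Vsig4, the complement receptor CRIg, rose by 1.66 (SE 0.43, adjusted p 0.022), by 2.62 within slide 1 but 0.70 within slide 2, and stood at -2.28 against day 0. It did not pass with the replicate block (adjusted p 0.0621), without replicate 1 of day 14 (1.21, adjusted p 0.208) or without replicate 1 of day 7 (1.15, adjusted p 0.186). Icam2, an adhesion molecule used to sort these cells, was at 13.11 and 13.16 and then 13.97 and 13.60, and its difference of 0.65 did not pass (adjusted p 0.162). Cd9, a tetraspanin, rose by 1.03 (adjusted p 0.00191) to a level 1.44 above day 0 (adjusted p 6.06e-05).

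The list was not regained as a whole. At day 7, 19 of 31 members were below day 0, beside 13.5% of all genes, and at day 14 11 were, beside 9.5%. Among members chosen here after their values were seen, Marco, a scavenger receptor for bacteria, was at 13.18 and 13.59 on day 0, at 7.04 and 8.01 on day 7 and at 6.70 and 6.60 on day 14. Its day 14 level against day 0 was -6.74 (adjusted p 1.32e-06), and the difference from day 7 did not pass (-0.88, adjusted p 0.35). At day 14 against day 0, Apoc1, an apolipoprotein, gave -6.58, the kinase gene Dmpk -6.36 and the actin-bundling protein gene Fscn1 -5.25, and none of the 3 passed between day 7 and day 14 (0.66, -0.82 and -0.47; adjusted p 0.272, 0.0974 and 0.388). Cxcl13, the chemokine that draws B cells, rose by 2.35 (adjusted p 0.00117) yet was still at -5.90 against day 0. The course was not a steady return: Tgfb2 was at 11.54 and 10.64 on the day 4 arrays, and Timd4 at 12.70 and 12.43, above both of their day 7 arrays. Lyve1, a hyaluronan receptor, was the member above day 0 on both days (3.27 and 3.18).

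**Figure D2:**
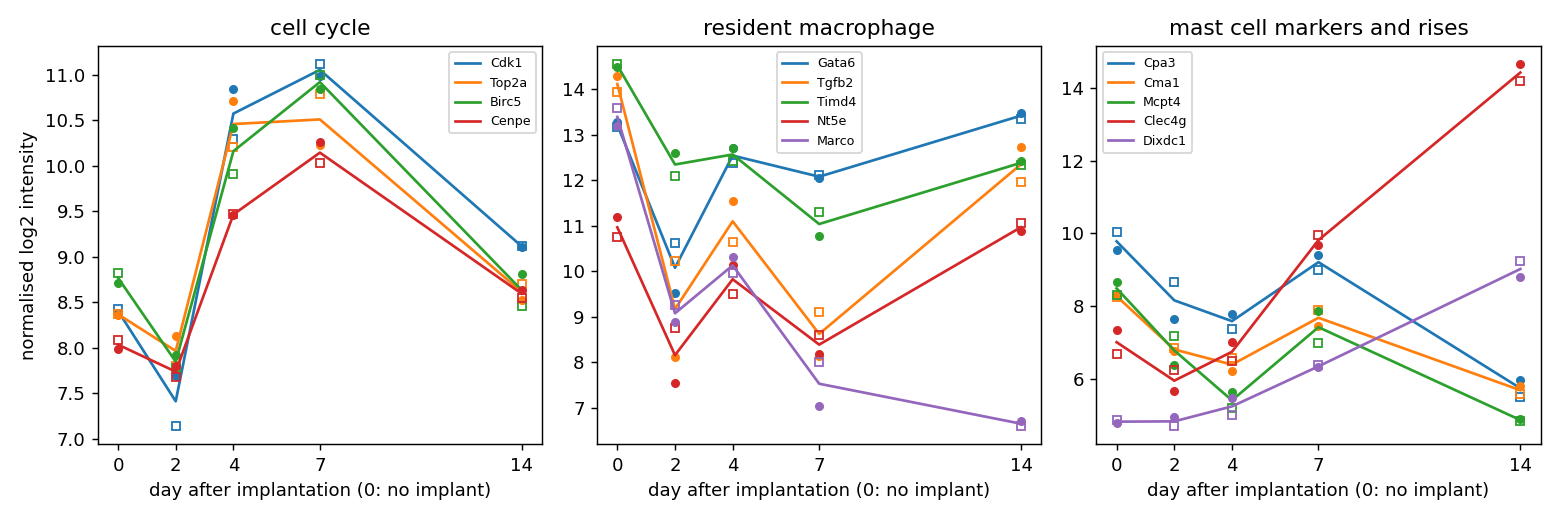
Normalised log2 intensity (vertical axis) of named genes in lavage cells by day after implantation (horizontal axis); filled circles are replicate 1, open squares replicate 2 and lines the mean of both. Cdk1, Top2a, Birc5 and Cenpe peaked at day 4 or 7 and dropped by day 14; Gata6, Tgfb2, Timd4 and Nt5e rose from day 7 to day 14 while Marco did not; Cpa3, Cma1 and Mcpt4 were lowest at day 14, where Clec4g and Dixdc1 were highest.

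In the resident members that rose, windows were found for 11 of 14 genes (13 windows), and letters bound by GATA factors (AGATAA, or else AGATAG, or else TGATAA, or else TGATAG, on either strand) were in 30.8% of them and in 29.8% of all windows. The window of Tgfb2 (RefSeq, GRCm38.p6, chr1:186705940-186706239, minus strand) is shown as an example of a window with such letters. Tgfb2 had the smallest p among the named resident genes that rose and whose window held them. Its 1 match, in capitals, was therefore a condition of the choice, and 4 of the 13 windows held such letters.
Tgfb2: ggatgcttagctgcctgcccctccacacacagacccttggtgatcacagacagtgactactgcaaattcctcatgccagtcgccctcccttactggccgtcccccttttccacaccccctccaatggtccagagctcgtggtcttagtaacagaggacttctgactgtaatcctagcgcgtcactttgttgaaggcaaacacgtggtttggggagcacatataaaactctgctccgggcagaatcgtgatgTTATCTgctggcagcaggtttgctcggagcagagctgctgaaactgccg

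Several of the largest rises were not resident markers. Clec4g, a C-type lectin, rose more than any other gene: it was at 9.68 and 9.96 on the day 7 arrays and at 14.65 and 14.19 on the day 14 arrays, a rise of 4.60 (SE 0.31, adjusted p 5.17e-06) or 24.3-fold. Its day 0 arrays were at 7.34 and 6.69, so that its level had already risen by 2.80 at day 7 and was 7.41 above day 0 at day 14 (adjusted p 2.26e-09). Srpx, a sushi-repeat protein, went from 6.48 and 6.77 to 10.74 and 9.84 (3.67, SE 0.39, adjusted p 6.34e-05), and its second probe was undetected at day 7. Dixdc1, a component of Wnt signalling, went from 6.32 and 6.38 to 8.79 and 9.25 (2.67, SE 0.21, adjusted p 1.19e-05) and was undetected at day 0. Sprr2f, an epithelial cornified-envelope gene, was undetected at day 7 and at 8.57 and 8.59 on day 14, at least 7.40-fold higher; its close relatives may share the probe's signal, so it is uncertain.

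Ptgis, the prostacyclin synthase, went from 10.69 and 11.15 to 13.86 and 13.33 (2.67, SE 0.45, adjusted p 0.00166), with day 0 at 14.98 and 14.77. Enpp5, an ectonucleotide phosphodiesterase family member, went from 7.41 and 7.67 to 10.18 and 9.94 (2.52, SE 0.34, adjusted p 0.000311). Both genes were higher on day 0 than on either later day. Cmya5, a muscle sarcomere-associated gene, went from 6.01 and 5.60 to 8.48 and 8.54 (2.71, SE 0.31, adjusted p 9.89e-05). Col16a1, a minor fibril-associated collagen, was at least 4.61-fold higher at day 14 and Lama3, a laminin chain, at least 3.30-fold. A second probe of Lama3 gave 0.29 (adjusted p 0.598), so that result rests on 1 probe.

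**Figure D3:**
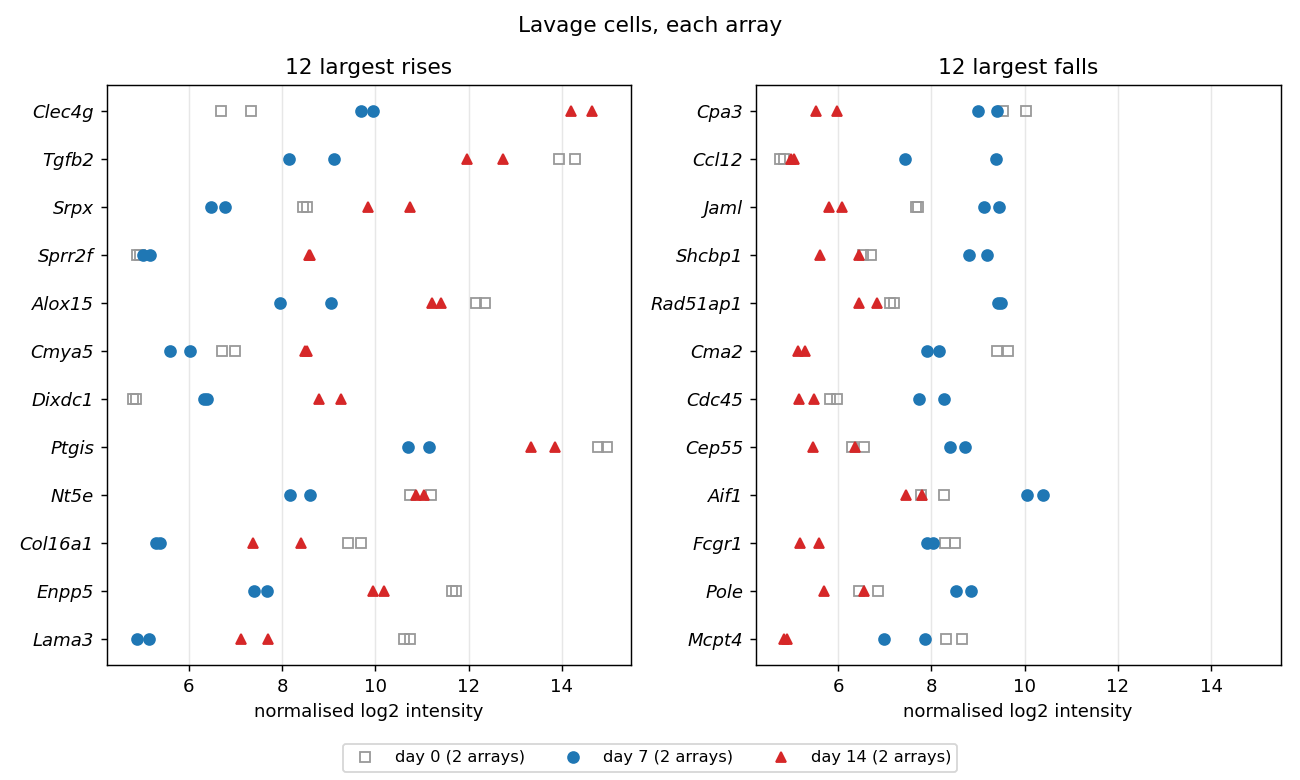
Normalised log2 intensity (horizontal axis) of the 12 genes with the largest rises (left) and the 12 with the largest falls (right) on each lavage array of day 0 (grey squares), day 7 (blue circles) and day 14 (red triangles). Red and blue symbols do not overlap for any of the 24 genes, and day 0 lies beyond day 14 for Tgfb2 and Lama3 but far below it for Clec4g and Dixdc1.

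Mast cell protease genes, namely Cpa3, Cma1, Cma2 and Mcpt4, fell below the level of the unstimulated cavity. Cpa3, the mast cell carboxypeptidase, had the largest fall of any gene: it was at 9.41 and 9.01 on the day 7 arrays and at 5.98 and 5.52 on the day 14 arrays, of which 1 detected it. The change was -3.46 (SE 0.32, adjusted p 2.71e-05), and its second probe was undetected at day 14. At day 0 it was at 9.53 and 10.03, so day 14 against day 0 gave -4.03 (adjusted p 7.42e-07). The chymase genes followed. Cma2 was undetected at day 14 and at least 4.68-fold lower than at day 7, and Mcpt4 at least 3.07-fold lower. Cma1 went from 7.47 and 7.90 to 5.81 and 5.58 (-1.99, SE 0.17, adjusted p 1.98e-05). These proteases are close relatives of each other, so their probes may share signal.

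Of 12 measured eosinophil and mast cell markers 5 fell and 2 rose, beside 6.82% and 6.28% of all genes, with a median of -0.80. At day 14, 6 of the 12 were below day 0 and 1 above, beside 9.5% and 10.3% of all genes. Tpsb2, a tryptase, fell by 1.28 (adjusted p 0.000639) and Gata2, a transcription factor of mast cells, was undetected at day 14 and at least 1.27-fold lower (adjusted p 0.000791). Kit, the stem cell factor receptor that defines mast cells, was at 6.21 and 5.99 and then undetected, and Fcer1a, their IgE receptor chain, was also undetected at day 14, but neither passed (adjusted p 0.128 and 0.0692). The 2 that rose were Alox15 and Hdc, the histamine-forming enzyme (2.16, adjusted p 0.00378), both of which macrophages can make. The summed level of the list was 10.99 and 11.03 (log2) at day 7 and 11.79 and 11.88 at day 14. Alox15 alone was at 7.95 and 9.04 and then at 11.22 and 11.41, so the sum at day 14 was largely that of Alox15. The part of mast cells or eosinophils in the other results was not tested.

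Genes of recruited monocytes fell in 5 of 16 measured members and rose in 0, beside 6.82% and 6.28% of all genes, with a median of -0.41. The count was 3 without replicate 1 of day 7, 3 without replicate 2 of day 7 and 3 without replicate 2 of day 14. Ccr2, the receptor that brings monocytes out of the blood, was at 10.25 and 10.16 on the day 7 arrays and at 8.08 and 7.67 on the day 14 arrays. The groups were far apart, a fall of 2.33 (SE 0.28, adjusted p 0.000137) to a level that did not differ detectably from day 0 (-0.45, adjusted p 0.284). S100a4, a calcium-binding protein of motile cells, went from 13.88 and 13.65 to 13.15 and 13.03 (-0.68, SE 0.14, adjusted p 0.00656), which did not pass without replicate 1 of day 7 (-0.56, adjusted p 0.0664). Aif1, a myeloid list member that encodes the IBA1 protein of activated macrophages, went from 10.05 and 10.39 to 7.80 and 7.46 (-2.59, SE 0.28, adjusted p 6.63e-05).

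Fcgr1, the high-affinity IgG receptor CD64, was at 8.04 and 7.90 at day 7 and undetected at day 14, at least 4.49-fold lower, with day 0 at 8.29 and 8.51. Jaml, a junctional adhesion molecule of leukocytes, went from 9.13 and 9.44 to 5.79 and 6.09 (-3.35, SE 0.35, adjusted p 5.89e-05; -1.03 on a second probe, adjusted p 0.0376). Fpr2, a formyl peptide receptor, went from 12.30 and 12.01 to 10.12 and 10.80 (-1.70, SE 0.37, adjusted p 0.00783), which did not pass without replicate 1 of day 14 (-1.36, adjusted p 0.0958) or of day 7 (-1.55, adjusted p 0.0632). Neutrophil markers fell in 4 of 15 measured members and rose in 0, beside 6.82% and 6.28% of all genes, with a median of -0.70. The 4 became 1 without replicate 1 of day 7, 1 without replicate 1 of day 14 and 2 without replicate 2 of day 7. Cxcr2, the chemokine receptor of neutrophils, was undetected at day 14 and at least 2.19-fold lower, a call lost without replicate 2 of day 7 (adjusted p 0.0621), while S100a8 and S100a9 did not pass (-0.70 and -0.89, adjusted p 0.0664 and 0.274). The summed level of that list was 14.31 and 14.32 at day 7 and 13.58 and 14.11 at day 14.

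Chemokine genes fell in 6 of 23 measured members and rose in 3, beside 6.82% and 6.28% of all genes, with a median of -0.67. Ccl12, a monocyte chemoattractant, was at 9.40 and 7.43 on the day 7 arrays and undetected on both day 14 arrays, at least 6.10-fold lower. The day 7 arrays differed by nearly 2 units. Ccl17, a ligand of CCR4, was also undetected at day 14 and at least 3.10-fold lower. Ccl8, a further monocyte chemoattractant, fell by 2.05 (adjusted p 0.00644), which did not pass without replicate 1 of day 7 (-1.63, adjusted p 0.0732). Pf4, a platelet chemokine that resident macrophages also make, went from 12.38 and 12.57 to 11.12 and 10.98 (-1.42, SE 0.17, adjusted p 0.000126), with day 0 at 14.53 and 14.48.

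Cxcl16, a membrane-bound chemokine and scavenger receptor, rose from 9.13 and 9.23 to 10.17 and 10.35 (1.08, SE 0.17, adjusted p 0.00102). Il1b, an inflammatory cytokine of the interleukin-1 family, went from 9.02 and 9.63 to 7.71 and 7.60 (-1.67, SE 0.25, adjusted p 0.000783). Il1a, of the same family, went from 7.25 and 7.88 to 8.38 and 9.44 (1.35, SE 0.30, adjusted p 0.00891). Its call ended without replicate 2 of day 14 (0.82, adjusted p 0.0722), without replicate 1 of day 7 (1.03, adjusted p 0.095) and with median scaling (0.81, adjusted p 0.0701). In the whole list of 19 measured inflammatory genes 2 rose and 1 fell, beside 6.28% and 6.82% of all genes. The rises depended on single arrays. Interferon response genes (15 measured) and immediate early genes (15 measured) gave 0 calls in either direction with limma, with medians of 0.05 and 0.08. At an unadjusted p under 0.05, 0 interferon genes and 3 immediate early genes differed (1 higher, 2 lower).

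Alternative activation, the programme that interleukin 4 induces in macrophages, was partly lowered. Of 21 measured members 5 fell and 1 rose, beside 6.82% and 6.28% of all genes, with a median of -0.26. Mgl2, a galactose-type lectin, went from 15.38 and 15.63 to 14.32 and 14.61 (-1.04, SE 0.16, adjusted p 0.000991), and Mrc1, the mannose receptor, from 14.85 and 15.003 to 13.49 and 14.04 (-1.15, SE 0.21, adjusted p 0.00239). Pdcd1lg2, the checkpoint ligand PD-L2, went from 9.47 and 9.77 to 7.83 and 8.48 (-1.47, SE 0.20, adjusted p 0.000381). Mgl2 and Mrc1 were still above day 0, by 2.76 and 1.27, and Pdcd1lg2 was undetected at day 0.

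Arg1, the arginase that is the usual marker of this programme, was at 15.74 and 15.71 and then 15.44 and 15.79, with overlapping arrays and a difference of -0.11 (SE 0.14, adjusted p 0.645); its probe was near the top of the intensity scale, where differences are compressed. Chil4, a chitinase-like protein whose relatives may share its probe, and Slc7a2, an arginine transporter, did not pass either (0.14 and 0.17) and were 5.32 and 5.65 above day 0 at day 14. Chil4 lay at 15.29 to 15.44 on the arrays of both days, also near the top of that scale. At day 14, 15 of the 21 members were above day 0, beside 10.3% of all genes, and 17 were at day 7, beside 15.1%. Klf4, a transcription factor of the programme, was the member that rose (0.85, adjusted p 0.00592), and 2 members rose without replicate 2 of day 7. With median scaling 0 members rose and 9 fell, so the call of Klf4 was lost there.

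**Figure D4:**
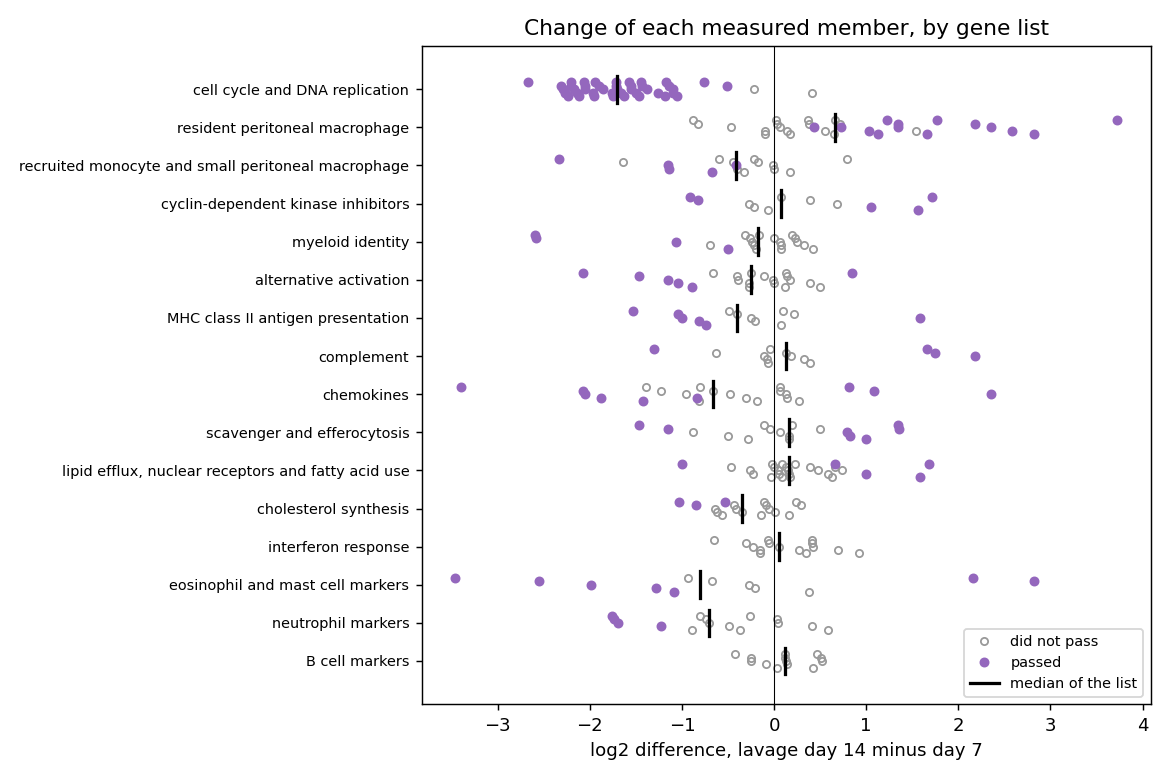
Log2 difference, lavage day 14 minus day 7 (horizontal axis), of each measured member of 16 gene lists; filled points passed the test, open points did not, and the black bar is the median of the list. The cell cycle list lies almost wholly to the left, the resident list mostly to the right, and the eosinophil and mast cell list holds both the largest fall, Cpa3, and 2 rises.

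Antigen presentation genes of class II fell in 5 of 13 measured members and rose in 1, with a median of -0.40. Over all genes 6.82% fell and 6.28% rose. The 5 became 1 without replicate 2 of day 7, 2 without replicate 2 of day 14, 3 without replicate 1 of day 14 and 2 with the replicate block. Ifi30, the lysosomal thiol reductase that prepares antigens, went from 15.03 and 14.99 to 13.43 and 13.53 (-1.53, SE 0.22, adjusted p 0.000542; -1.27 on a second probe). H2-DMa, the chaperone of peptide loading, went from 13.17 and 13.23 to 12.59 and 12.33 (-0.74, SE 0.17, adjusted p 0.00963), which did not pass without replicate 2 of day 7 (adjusted p 0.062) or of day 14 (adjusted p 0.0639). The class II chains H2-Ab1, H2-Eb1 and H2-Aa did not pass (-0.40, -0.49 and 0.21). Cd86, the costimulatory ligand, went the other way, from 11.13 and 10.99 to 12.54 and 12.73 (1.58, SE 0.17, adjusted p 6.12e-05; 1.35 on a second probe). Among 14 measured dendritic cell markers 2 rose and 3 fell, beside the same shares of all genes. Without replicate 2 of day 14 or replicate 1 of day 7 0 fell, without replicate 2 of day 7 1 rose and 1 fell, and without replicate 1 of day 14 1 rose. Cd209a, a C-type lectin, rose by 1.62 (adjusted p 0.00276).

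Receptors for dying cells and their bridging proteins moved in both directions. In the scavenger list 5 of 17 measured members rose and 2 fell, beside 6.28% and 6.82% of all genes, with a median of 0.16. The 5 became 1 without replicate 1 of day 14 and 2 without replicate 2 of day 7. With median scaling 2 rose and 5 fell, with a median of -0.04, so the balance of the list depended on the scaling. Axl, a receptor tyrosine kinase for apoptotic cells, went from 11.03 and 10.54 to 12.45 and 11.84 (1.36, SE 0.28, adjusted p 0.00528), which did not pass without replicate 1 of day 14 (1.05, adjusted p 0.0745) or replicate 2 of day 7 (1.12, adjusted p 0.0626). Gas6, its bridging ligand, went from 10.63 and 10.40 to 9.11 and 8.98 (-1.47, SE 0.27, adjusted p 0.00294). Mertk, a related receptor, gave 0.07 (adjusted p 0.859). Cd55, a complement decay accelerator, rose from 6.91 and 6.94 to 9.09 and 8.24 (1.75, SE 0.25, adjusted p 0.000502), while the C1q chains C1qa, C1qb and C1qc differed by -0.11 to -0.05 and did not pass.

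Among lipid genes 4 of 26 measured members of the efflux and fatty acid list rose and 1 fell, with a median of 0.16, and 0 fell without replicate 1 of day 14 or replicate 2 of day 7. Ucp1, the uncoupling protein of brown fat mitochondria, was at 12.38 and 12.42 and then 14.06 and 14.10, a rise of 1.68 (SE 0.37, adjusted p 0.00882) to a level 5.97 above day 0. It did not pass without replicate 1 of day 14 (adjusted p 0.0554) or of day 7 (adjusted p 0.0526), though the change was 1.70 and 1.66. Mgll, the monoacylglycerol lipase, went from 8.11 and 8.09 to 9.83 and 9.54 (1.59, SE 0.28, adjusted p 0.00191), and Acaca, the acetyl-CoA carboxylase, from 11.68 and 11.79 to 12.88 and 12.58 (0.99, SE 0.15, adjusted p 0.000889). A second probe of Acaca gave 0.40 and did not pass (adjusted p 0.0855), while that of Mgll gave 0.94 (adjusted p 0.0033). Cholesterol synthesis genes fell in 3 of 17 measured members, with a median of -0.35, and in 1 without replicate 2 of day 7. Sqle, the squalene epoxidase, fell by 1.03 (adjusted p 0.00267).

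Matrix-remodelling and metal genes gave few calls, beside 6.28% of all genes that rose and 6.82% that fell. Their counts are not read as a result about these lists. Plau, the urokinase protease, went from 10.14 and 10.24 to 8.17 and 8.30 (-1.95, SE 0.15, adjusted p 1.19e-05). In the list of 19 measured proteases and inhibitors 1 rose and 2 fell. The rise was lost without replicate 1 of day 14, without either day 7 array and with the replicate block, and 1 fell without replicate 1 of day 14, without replicate 2 of day 7 and with the replicate block. Of 22 iron and antioxidant genes 1 fell, and 0 without replicate 1 of day 14 or replicate 2 of day 7. Trem2, a receptor of lipid-laden macrophages, fell by 0.84 (adjusted p 0.00303) and remained 1.17 above day 0. Egln3, a prolyl hydroxylase induced by hypoxia, rose by 1.60 (adjusted p 0.00651), but a second probe gave 0.05 (adjusted p 0.931), and the rise did not pass without replicate 2 of day 7 (adjusted p 0.0592). Pkm, the pyruvate kinase of glycolysis, fell by 0.72 (adjusted p 0.00346), but a second probe gave -0.05 (adjusted p 0.917), so that result rests on 1 probe. Oxidative phosphorylation genes fell in 4 of 25 members with a median of -0.06, and lysosome genes in 3 of 25 with a median of -0.01, beside 6.82% of all genes. Without replicate 1 of day 14 or replicate 2 of day 7 each list had 1, and the oxidative phosphorylation list had 2 without replicate 1 of day 7 and 2 with the replicate block.

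Markers of other cell types were also read on the same arrays. Their counts stand beside 6.28% of all genes that rose and 6.82% that fell. B cell markers, 13 measured, gave 0 calls with limma, 1 at an unadjusted p under 0.05 and a median of 0.12. Their median level was 8.15 and 7.999 at day 7 and 8.82 and 7.65 at day 14. Of the day 14 arrays that of slide 1 was the higher. At day 14, 8 members were below day 0, beside 9.5% of all genes, and 9 were at day 7, beside 13.5%. T and NK cell markers fell in 2 of 14 members, namely Klrd1 (-1.52, adjusted p 0.00712) and Il7r (-1.45, adjusted p 0.000416), whose other 3 probes were undetected on both days. Klrd1 did not pass without replicate 1 of day 7 (-1.26, adjusted p 0.0729), which left 1. Markers of mesothelium, fibroblasts and smooth muscle fell in 2 of 11, namely Acta2 (-1.28) and Igfbp6 (-1.18). Endothelial, platelet and erythroid markers fell in 3 of 12, of which that of Pf4 was the largest, but in 1 whichever of the 4 arrays was left out and in 1 with the replicate block. The summed level was 12.34 and 12.37 and then 12.13 and 11.995 (log2, day 7 and day 14) for the T and NK list, 9.90 and 9.85 and then 9.59 and 9.65 for the mesothelial list, and 13.25 and 13.36 and then 12.76 and 12.50 for the endothelial list. The part of these cells in the other results was not tested.

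The same days could be compared in capsule cells, where 12.1% of genes were lower at day 14 than at day 7 and 11.8% higher. The cavity change was lower than the capsule change in 4.66% of genes and higher in 6.81%. Capsule day 14 was alone on its slide, so slide and group cannot be told apart in that difference, and the values of undetected genes in it depend on the background. Of the 44 cell cycle members, 25 fell further in the cavity than in the capsule and 1 fell less, and the capsule median was -0.33. Cdk1 changed by -0.17 in the capsule, a difference of -1.77 (SE 0.33, adjusted p 0.00399), and Top2a by -0.14, a difference of -1.75 (SE 0.33, adjusted p 0.00443). Pcna was the exception, at -1.57 in the capsule and a difference of 1.06 (adjusted p 0.00802).

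The mast cell genes also differed between the places. Cpa3 changed by -0.22 in the capsule, a difference of -3.24 (SE 0.45, adjusted p 0.000925), and Cma1 by 0.30, a difference of -2.29 (SE 0.25, adjusted p 0.000217). Among the largest rises, Clec4g rose still more in the capsule, by 6.68, a difference of -2.08 (SE 0.44, adjusted p 0.00829). Tgfb2 rose by 3.68 there, Srpx by 3.11 and Cmya5 by 2.64, with differences of 0.04, 0.56 and 0.07 (SE 0.74, 0.55 and 0.43) that did not pass. Gata6 changed by 0.92 in the capsule, and its difference of 0.42 (SE 0.38, adjusted p 0.535) did not pass either. Of the 31 resident members 15 rose and 1 fell in the capsule, beside 11.8% and 12.1% of all genes, with a capsule median of 0.83. The median difference, cavity minus capsule, was -0.10. The cavity change was higher than the capsule change in 4 members and lower in 2, beside 6.81% and 4.66% of all genes. Nt5e and Cfb were among the 4, with differences of 2.10 (SE 0.48, adjusted p 0.0126) and 2.09 (SE 0.50, adjusted p 0.0153).

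**Figure D5:**
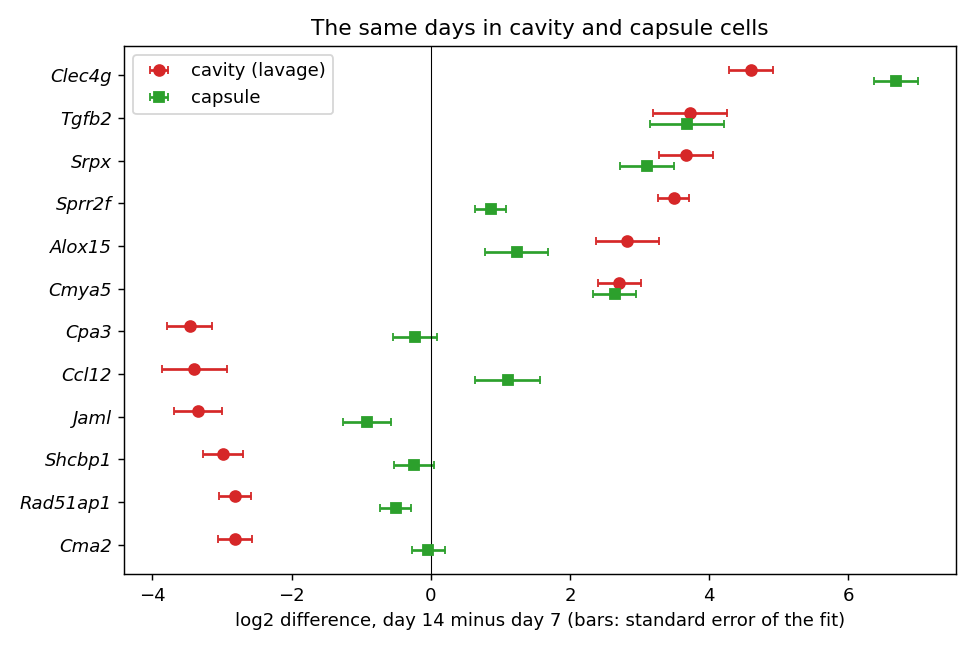
Log2 difference, day 14 minus day 7 (horizontal axis), in cavity cells (red circles) and capsule cells (green squares) for the 6 largest rises and 6 largest falls in the cavity; bars are the standard error of the fit. The differences between the places did not pass for Tgfb2, Srpx and Cmya5, Clec4g rose more in the capsule, and each of the 6 falls was smaller in the capsule, where Ccl12 lay on the other side of 0.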

How the data were processed

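Illumina mouse bead arrays measured RNA of sorted cells in 18 samples of 9 groups, 2 arrays each. The authors deposited, per the file headers, bead intensities that had not been normalised, with a p-value of detection beside each, exported with BeadStudio per the submitters' processing notes. They also deposited log2 values, processed in R 2.15.3 per the submitters' processing notes, which served as an alternative. Background correction with inferred negative controls, quantile normalisation and log2 (neqc, offset 16) were run in limma 3.58.1 under R 4.3.3. A probe entered (20985 in all) where some group had detection p under 0.05 on each of its arrays, and the brightest named probe stood for each of 10806 genes, out of 17711 with a named probe. All 18 arrays entered the limma fit, with a mean for each group and 9 residual degrees of freedom, and p-values were Benjamini-Hochberg adjusted over all genes, with a threshold of 0.05. The number of arrays limits the precision. Values are normalised log2 intensities, and differences are day 14 minus day 7. The 12 largest rises and 12 largest falls and the 3 members with the smallest p of each of 33 gene lists were named. Other genes, such as Cdkn2a, Cxcl13, Marco, Ucp1, Hdc, Ccl8 and Kit, were chosen after their values were seen. The members and lists were chosen with earlier results of these data known. Replicate numbers pair the arrays, since the labels give all replicates 1 of the lavage groups and of capsule day 7 slide 1 and all replicates 2 slide 2; deviations of same-numbered arrays correlated at -0.11 to 0.13 over 15 pairs of groups. Alternatives covered background correction, scaling, the detection filter, other probes, the arrays fitted, slide blocks, the variance prior and each array left out. The fit was tested on simulated data. Promoter windows came from RefSeq, matched by symbol.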

Additional observations from a re-analysis of the deposited data

Results flagged for a closer look

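For 8 of the genes with the largest changes, the change from day 7 to day 14 differed between cavity and capsule cells by the interaction term of the limma fit. Values are the cavity change minus the capsule change on the log2 scale. The difference was -2.083 for Clec4g, which rose in both places and more in the capsule (adjusted p 0.00829). It was 2.629 for Sprr2f (adjusted p 0.000468), -3.239 for Cpa3 (adjusted p 0.000925) and -4.499 for Ccl12 (adjusted p 0.000986), whose value in the capsule was 1.11 (adjusted p 0.103). It was -2.43 for Jaml (adjusted p 0.00622), -2.744 for Shcbp1 (adjusted p 0.00101), -2.311 for Rad51ap1 (adjusted p 0.000925) and -2.779 for Cma2 (adjusted p 0.000483). Each value is that of 1 probe. In the cavity alone, other probes gave smaller falls: -0.97 for Shcbp1 against -2.98, and -1.22 and -0.83 for Rad51ap1 against -2.82. The last of these did not pass (adjusted p 0.282). Those of Jaml, Cpa3 and Ccl12 gave -1.03, -2.20 and -2.18, against -3.35, -3.46 and -3.39. Sprr2f was undetected in the cavity at day 7, and Ccl12 and Cma2 at day 14, where Cpa3 was detected on 1 of 2 arrays, so the sizes given for these 4 genes rest on background signal. Capsule day 14 was alone on its slide, so slide and group cannot be told apart here.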

How the results depend on the processing

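Of the 1416 genes that changed (679 higher, 737 lower), the count was 3615 with median scaling (205 higher, 3410 lower), 669 with the 4 arrays alone (276 and 393), 532 at 2-fold or more (200 and 332) and 2183 with every kept probe tested separately (1037 and 1146, which tests more features). Leaving out each array in turn gave 677 to 1316 genes, 262 to 671 higher and 415 to 645 lower, with 677 without replicate 1 of day 14, 775 without replicate 2 of day 7 and 818 without replicate 1 of day 7. The cause of these shifts was not tested. With the replicate block on slides 1 and 2 1114 genes changed (532 higher, 582 lower), against 1204 on the same arrays without it. The other settings gave 1252 to 1545, and 1261 genes detected on all 4 arrays, a setting chosen after seeing the data. Resident members that rose numbered 9 to 13, against 14, when 1 array was left out, and were 9 without replicate 1 of either day. The 4 reversals were all on other probes of the gene and none passed: 0.5784 for Cdkn2c, -0.6839 for P4ha1, -0.1056 for Pdgfb and 0.1103 for Il7r. Of 93 named genes 54 passed under every setting on the same probe and 48 on every other probe too, and Loxl2, Pmvk, Eng and Plaur were among those lost most often. Having 2 arrays a group and signals near background limit the precision of dim genes.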
